A study of Arabidopsis thaliana with 6 samples.

Results

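The genes described here are 9 genes of jasmonate synthesis and the jasmonate response gene VSP2 in Arabidopsis thaliana, followed from the freshly cut hypocotyl to the callus that grew from it. They were taken by name and AGI code (LOX2 AT3G45140, LOX3 AT1G17420, LOX4 AT1G72520, AOS AT5G42650, AOC1 AT3G25760, AOC2 AT3G25770, AOC3 AT3G25780, OPR3 AT2G06050, JAR1 AT2G46370 and VSP2 AT5G24770), which makes 10 of the 31276 genes in the table, and the rule uses no measured value. Hypocotyls, the stems below the seed leaves, were cut from 1-week-old seedlings of the wild-type accession Col-0 and kept on a medium that induces callus, a mass of dividing cells. RNA was sequenced at excision (day 0, 3 biological replicates) and after 7 days on the medium (day 7, 3 biological replicates). No mutant, transgene or jasmonate treatment is named for either group, and all 6 libraries carry callus as their tissue label although the day 0 material is described as just excised. The question put to these genes is how their transcripts differ between the explant and its callus.

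Jasmonates are lipid hormones of wounding, insect defence and stamen maturation. In the plastid, lipoxygenases (LOX) oxygenate linolenic acid, allene oxide synthase (AOS) dehydrates the product, and allene oxide cyclase (AOC) closes the ring to give OPDA. OPDA moves to the peroxisome, where the reductase OPR3 and rounds of beta-oxidation shorten it to jasmonic acid, and JAR1 joins the acid to isoleucine, giving the form that the receptor COI1 binds together with JAZ repressors. VSP2, a vegetative storage protein, is a classic target of this signal, and synthesis genes such as LOX2 are themselves induced by it.

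The values were TPM, which count transcripts per length and relative to a fixed total, so levels can be compared between genes but the depth is unknown and no counting interval can be given. The libraries differed in scale: nuclear protein-coding genes held 59.5% to 86.4% of that total at day 0 and 37.6% to 81.0% at day 7, and replicate 2 was highest in both groups. All listed genes together summed to 811788 to 922411 TPM at day 0 and 793808 to 908068 at day 7. These sums fall short of the fixed total, so a part of each library, different between libraries, is not among the listed genes. Values are therefore also given after median-of-ratios scaling, which divides each library by a factor (0.712 to 1.56) that centres the typical gene, and as ratios within a library, which no scaling changes. Summed markers of photosynthetic tissue, epidermis and phloem were lower in every day 7 library, and those of the other tissues overlapped between the groups. The 5 photosynthetic markers (RBCS1A, LHCB1.1, LHCB2.1, PSAL, PSBO1) summed to 101, 113 and 666 TPM at day 0, with replicate 3 far above the others, and to 7.00 to 10.9 TPM at day 7, where LHCB2.1 was listed at 0 in 1 library. The 5 epidermal markers summed to 420 to 902 and 21.4 to 81.5 TPM, the 3 phloem markers to 20.0 to 23.0 and 9.28 to 18.3, and the 3 xylem markers to 49.3 to 58.6 and 34.7 to 61.0. Single markers did not all follow these sums. Of the phloem markers APL was lower in every day 7 library, SUC2 overlapped with a lower mean, and SEOR1 was not lower (5.92 to 7.73 and 6.22 to 9.19 TPM). The epidermal marker PDF1 overlapped (19.7 to 30.8 and 3.40 to 26.1). The xylem marker VND7 was higher in every day 7 library (0.590 to 0.830 and 1.56 to 3.00). The 5 root meristem and callus markers summed to 131 to 179 TPM at day 0 and 87.2 to 222 at day 7, and went different ways. PLT1 stood at 1.92 to 2.83 TPM at day 0 and 47.3 to 111 at day 7, and PLT2 at 1.62 to 3.43 and 13.3 to 36.8. LBD16 stood at 102 to 142 and 5.66 to 16.7. WOX5 (15.6 to 19.7 and 10.5 to 25.9) and SCR (8.44 to 15.3 and 10.4 to 32.0) overlapped. In such bulk tissue fewer cells of a type and less RNA per cell cannot be told apart, and the part of these shifts in the differences below was not tested.

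Where a step has several gene copies, 1 copy held most of the transcripts, and at the lipoxygenase and cyclase steps it was LOX6 and AOC4, which are not among the members. AOS, AOC3, OPR3 and JAR1 stood at 8.84 TPM or more in every library, and these 4 passed the minimum for testing (1 TPM or more in at least 3 libraries). LOX2, LOX3, LOX4, AOC1, AOC2 and VSP2 did not, and 5 of these 6 had means under 1 TPM in both groups, VSP2 being the exception at 1.04 TPM at day 0. As deposited, 1 of the 4 tested members fell (JAR1) and 0 rose, by limma-trend on log2(TPM + 1) at an adjusted p under 0.05 over all genes; of all tested genes 29.6% passed, 13.4% as higher and 16.2% as lower. On the median-of-ratios scale 1 rose (OPR3) and 1 fell (JAR1), against 64.9% of all tested genes, 31% as higher and 33.9% as lower. The share of members that passed was thus near that of all genes on either scale. Quantile normalization also called 2 members, against 63.2% of all genes. Rescaling to nuclear protein-coding genes called all 4 tested members, 3 of them higher, against 70.6% and 49.6% of all genes. Without the minimum 4 of the 10 members passed, all as lower, against 26.2% of all genes and 15.2% as lower. The deposited values of 4 members did not overlap between the groups, LOX3, LOX4, AOC2 and JAR1, all lower at day 7; of tested genes 38.7% did not overlap, 19.5% lower and 19.3% higher, and JAR1 is the 1 of these members that was tested.

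**Figure D1:**
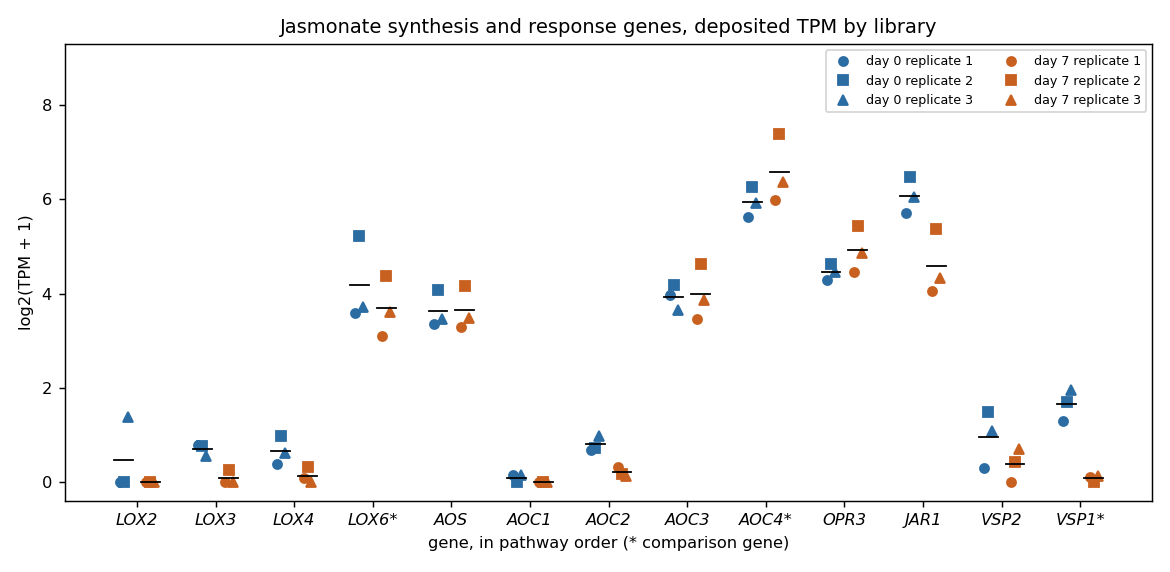
Deposited TPM of the 10 members and of the relatives LOX6, AOC4 and VSP1 (starred), as log2(TPM + 1), by library. Points are libraries (blue day 0, orange day 7, marker shape by replicate) and black bars are group means of the plotted values; LOX2, LOX3, LOX4, AOC1 and AOC2 lie near 0 in both groups, and the JAR1 points at day 7 all lie below those at day 0.

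LOX2, the main wound lipoxygenase of leaves, was listed at 0 in day 0 replicates 1 and 2, at 1.60 TPM in replicate 3, and at 0 in all 3 day 7 libraries. The single library with LOX2 transcripts was the one with the highest photosynthetic marker sum, 666 TPM against 101 and 113 in its 2 partners, and the part of that tissue in the LOX2 value was not tested. LOX3, which acts with LOX4 in stamen development in Arabidopsis, stood at 0.720, 0.710 and 0.460 TPM at day 0 and at 0, 0.200 and 0 at day 7. LOX4 stood at 0.300, 0.980 and 0.540 TPM at day 0 and at 0.0600, 0.250 and 0 at day 7. In both genes every day 7 value lay below every day 0 value, but all of them were under 1 TPM. Fitted without the minimum, LOX3 and LOX4 fell on log2(TPM + 1), with differences of -0.61 ± 0.16 (SE, limma adjusted p = 0.00453) and -0.53 ± 0.17 (limma adjusted p = 0.0232), and LOX2 did not (-0.46 ± 0.22, limma adjusted p = 0.130). LOX6 (AT1G67560), the remaining lipoxygenase of this branch and known from roots and xylem, stood at 11.1, 36.5 and 12.2 TPM at day 0 and at 7.58, 19.7 and 11.2 at day 7. The LOX6 groups overlapped and it did not pass (log2 difference -0.49 ± 0.44, SE, limma adjusted p = 0.447; -0.56 ± 0.29 and limma adjusted p = 0.121 after scaling).

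Within each library LOX6 held 91.6%, 95.6% and 82.4% of the summed LOX2, LOX3, LOX4 and LOX6 TPM at day 0 and 99.2%, 97.8% and 100% at day 7. The groups did not overlap in this share, and it was lowest where LOX2 was present. LOX2 itself held 10.8% in day 0 replicate 3 and 0% in the other 5 libraries. With only that library above 0, every split of 3 against 3 libraries gives the same absolute difference. The exact two-sided permutation test of its share (p = 1) could thus not come out otherwise and decides nothing. LOX3 held 1.86% to 5.95% at day 0 and 0% to 0.994% at day 7, and LOX4 held 2.48% to 3.65% and 0% to 1.24%. The coding sequences of LOX3 and LOX4 were 79.7% identical, those of LOX2 and LOX6 56.4%, and no run of 50 bases in the LOX2, LOX3 or LOX4 transcripts occurred in a transcript of another gene, so an exact read of that length belongs to 1 of them.

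AOS, a plastid cytochrome P450 encoded by a single gene, commits the product of the lipoxygenases to jasmonate. It stood at 9.24, 15.8 and 9.97 TPM at day 0 and at 8.84, 16.9 and 10.2 at day 7. Replicate 2 was the high one in each group and the groups overlapped throughout. The means were 11.7 ± 3.61 and 11.97 ± 4.28 TPM (SD, n = 3 each), and the log2 difference was 0.02 ± 0.45 (SE, limma adjusted p = 0.980). After median-of-ratios scaling the AOS values ran from 10.1 to 12.9 at day 0 and from 10.4 to 12.4 at day 7, and the log2 difference was -0.04 ± 0.13 (limma adjusted p = 0.783). When TPM were rescaled to the nuclear protein-coding genes, which lifted the median of all genes to 0.42 on the log2 scale against 0.05 as deposited, AOS passed as higher at 0.40 ± 0.15 (limma adjusted p = 0.0361), which is level with that median.

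The cyclase step is encoded by 4 genes, 3 of which are neighbours. AOC1, AOC2 and AOC3 lie in tandem on the + strand of chromosome 3 with 1330 and 1088 bases between them and no other annotated gene, and AOC4 (AT1G13280) lies on chromosome 1. The coding sequences of AOC1 and AOC2 were 89.9% identical, AOC3 was 81.2% and 80.8% identical to these, and AOC4 was 70.7% to 77.0% identical to the other three. The 60 coding bases in which the 4 genes are most alike within an exon (52 positions the same in all) are shown because they are where reads of one copy could most easily be given to another. They were read from the RefSeq assembly TAIR10.1, and capitals mark bases that differ from AOC3.
AOC1 (chr3:9404668-9404727, + strand): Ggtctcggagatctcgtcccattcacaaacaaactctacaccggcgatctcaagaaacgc
AOC2 (chr3:9407402-9407461, + strand): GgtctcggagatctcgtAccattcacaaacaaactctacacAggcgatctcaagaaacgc
AOC3 (chr3:9409972-9410031, + strand): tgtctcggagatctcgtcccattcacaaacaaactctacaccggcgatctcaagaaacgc
AOC4 (chr1:4548115-4548174, + strand): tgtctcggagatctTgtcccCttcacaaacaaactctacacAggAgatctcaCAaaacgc
AOC1 differs there from AOC3 at 1 base, AOC2 at 3 and AOC4 at 6. Over whole transcripts 2.1% of the runs of 50 bases in AOC1 and 0.0800% of those in AOC2 also occur in AOC3, and none in AOC4 occurs elsewhere, so few reads of that length would be ambiguous. How the authors assigned such reads is not stated, and the read length is not given in the sources used here.

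AOC1 and AOC2 lay under 1 TPM beside AOC3, their tandem neighbour. AOC1 was listed at 0.10, 0 and 0.10 TPM at day 0 and at 0 in all day 7 libraries. AOC2 stood at 0.600, 0.660 and 0.970 TPM at day 0 and at 0.240, 0.130 and 0.0900 at day 7, so all its day 7 values lay lower, though under 1 TPM. Fitted without the minimum, AOC2 passed as lower (log2 difference -0.59 ± 0.17, SE, limma adjusted p = 0.0102) and AOC1 did not (-0.09 ± 0.12, limma adjusted p = 0.630). AOC3 stood at 14.7, 17.1 and 11.6 TPM at day 0 and at 10.04, 23.91 and 13.61 at day 7. Its groups overlapped, with means of 14.4 ± 2.78 and 15.9 ± 7.20 TPM (SD, n = 3 each), and the log2 difference was 0.06 ± 0.44 (SE, limma adjusted p = 0.942), or -0.01 ± 0.17 after median-of-ratios scaling (limma adjusted p = 0.951). Rescaled over nuclear protein-coding genes it passed as higher, at 0.44 ± 0.16 (limma adjusted p = 0.0374), again level with the median of all genes on that scale.

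AOC4 was the most abundant cyclase in every library. It stood at 48.6, 75.6 and 59.7 TPM at day 0 and at 62.7, 167 and 81.5 at day 7, and did not pass on the deposited scale (log2 difference 0.65 ± 0.43, SE, limma adjusted p = 0.273), but rose after median-of-ratios scaling (0.58 ± 0.11, limma adjusted p = 0.00253). Of the summed AOC TPM in a library AOC4 held 76.0%, 81.0% and 82.5% at day 0 and 85.9%, 87.4% and 85.6% at day 7. AOC3 held 22.9%, 18.3% and 16.0% at day 0 and 13.8%, 12.5% and 14.3% at day 7. The day 7 libraries all lay higher for AOC4 and lower for AOC3, with mean differences of 6.49 and -5.56 percentage points (-3.64 for AOC3 without day 0 replicate 1). With AOC4 left out of the sum the AOC3 share turned and was 4.4 points higher at day 7, so its direction rests on AOC4 being in the sum. Both shares gave an exact two-sided permutation p of 0.1, the smallest that 3 against 3 libraries allow, and 0.2 after Benjamini-Hochberg adjustment over the 6 shares tested. AOC2 held 0.996% ± 0.321 and 0.164% ± 0.144 (SD, n = 3 each, exact permutation p = 0.1, adjusted 0.2), and AOC1 0.0982% and 0% (exact permutation p = 0.4, adjusted 0.48). With AOC1 listed at 0 in 4 libraries, its permutation test could not give a p below 0.4.

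**Figure D2:**
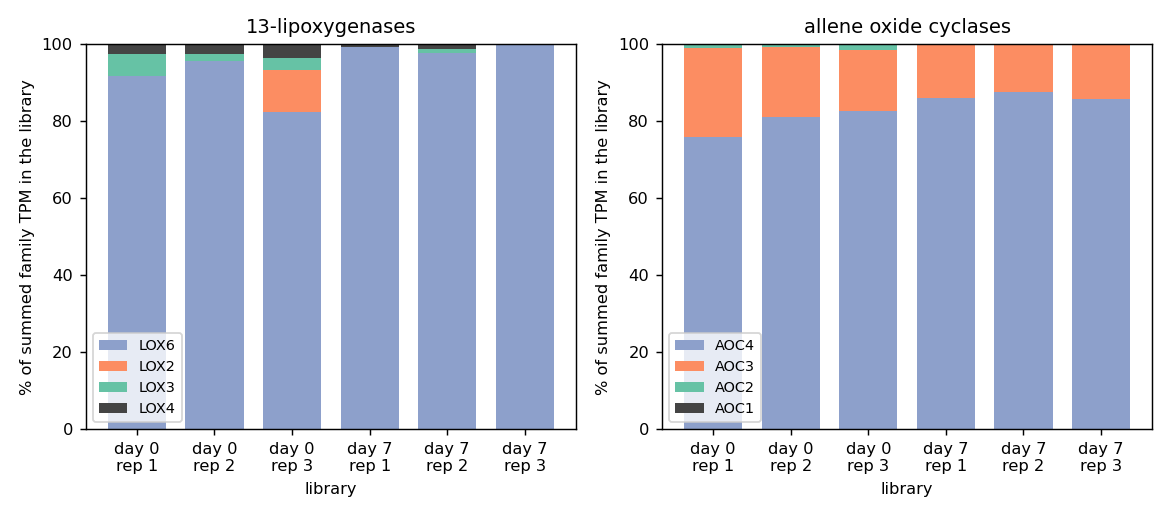
Share of each gene in the summed TPM of its family within a library, for the lipoxygenases LOX2, LOX3, LOX4 and LOX6 (left) and the cyclases AOC1 to AOC4 (right), one bar a library. LOX6 holds 82.4% to 100% and AOC4 76.0% to 87.4%; LOX2 is seen only in day 0 replicate 3.

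The 250 bases before the annotated starts of the 3 tandem cyclase genes (RefSeq TAIR10.1) are shown because these neighbours differ so much in transcript level. Capitals mark matches to the G-box CACGTG and its variant AACGTG, bound by MYC factors, and to the GCC-box GCCGCC, bound by ERF factors, searched on both strands. CACGTG and AACGTG differ in their first base, and no matches overlapped.
AOC1 (chr3:9403529-9403778, + strand): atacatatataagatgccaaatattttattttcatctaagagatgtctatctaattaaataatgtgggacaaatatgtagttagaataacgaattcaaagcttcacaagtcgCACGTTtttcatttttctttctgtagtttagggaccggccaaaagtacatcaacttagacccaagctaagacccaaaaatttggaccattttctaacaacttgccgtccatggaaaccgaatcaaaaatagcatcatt
AOC2 (chr3:9406419-9406668, + strand): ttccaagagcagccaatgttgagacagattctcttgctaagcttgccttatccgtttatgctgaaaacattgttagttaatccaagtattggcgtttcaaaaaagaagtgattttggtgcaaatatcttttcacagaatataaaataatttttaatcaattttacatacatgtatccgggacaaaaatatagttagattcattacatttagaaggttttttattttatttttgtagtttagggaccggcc
AOC3 (chr3:9408910-9409159, + strand): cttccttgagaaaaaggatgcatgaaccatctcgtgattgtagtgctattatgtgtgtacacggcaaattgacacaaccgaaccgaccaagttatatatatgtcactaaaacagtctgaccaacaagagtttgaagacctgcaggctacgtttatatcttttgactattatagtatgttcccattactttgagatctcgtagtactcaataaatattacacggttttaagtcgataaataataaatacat
AOC1 held 1 match, an AACGTG on the reverse strand at position -138 from its start, and AOC2 and AOC3 held 0 matches. Of 27443 protein-coding promoters of this length 6.49% held CACGTG, 7.54% AACGTG and 1.87% GCCGCC. Among the other members AOS had 1 CACGTG match and LOX4 1 AACGTG match in this window. Aligned end to end with gaps, the 3 windows were 44.1% to 47.6% identical. No unrelated windows were aligned for comparison, so these percentages do not measure how far the promoters differ. The longest common run of AOC1 and AOC2 was 19 bases (tgtagtttagggaccggcc), which begins 117 bases before the AOC1 start and 19 before that of AOC2, and the longest runs that AOC3 had in common with them were 8 and 9 bases.

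OPR3, the peroxisomal reductase specific for the natural OPDA isomer, stood at 18.6, 23.7 and 21.1 TPM at day 0 and at 21.0, 42.4 and 27.9 at day 7. As deposited the groups overlapped narrowly, with means of 21.1 ± 2.51 and 30.4 ± 10.9 TPM (SD, n = 3 each), and the log2 difference was 0.45 ± 0.44 (SE, limma adjusted p = 0.477). After median-of-ratios scaling the day 0 values were 23.9, 19.2 and 21.4 and the day 7 values 29.5, 27.1 and 28.5. All day 7 libraries then lay higher, and OPR3 rose by 0.39 ± 0.11 (SE, limma adjusted p = 0.0158), which no longer passed without day 0 replicate 3 (limma adjusted p = 0.0618). By rank, which no scaling of a library changes, OPR3 stood above 79.6% to 83.1% of listed genes at day 0 and 86.3% to 87.3% at day 7. Its ratio to AOS within a library was 2.02, 1.5 and 2.12 at day 0 and 2.37, 2.52 and 2.73 at day 7. Its relatives OPR1 (AT1G76680) and OPR2 (AT1G76690), cytosolic reductases, went in opposite directions after scaling. OPR1 had a log2 difference of 0.67 ± 0.16 and OPR2 one of -0.88 ± 0.12 (limma adjusted p = 0.00599 and 4.46e-04), and neither passed as deposited (limma adjusted p = 0.196 and 0.164).

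JAR1, the enzyme that makes the active jasmonoyl-isoleucine, was the most abundant member at day 0 and the 1 tested member that fell on all 4 scales tried (deposited, median-of-ratios, quantile, nuclear protein-coding). It stood at 51.6, 87.8 and 65.5 TPM at day 0 and at 15.6, 40.6 and 19.2 at day 7. The groups did not overlap, and the mean went from 68.3 ± 18.3 to 25.2 ± 13.5 TPM (SD, n = 3 each), 2.71-fold lower, and the log2 difference was -1.49 ± 0.44 (SE, limma adjusted p = 0.00329). Median-of-ratios scaling brought the replicates together, at 66.1, 71.4 and 66.5 against 22.0, 25.9 and 19.6, and the log2 difference was -1.56 ± 0.12 (limma adjusted p = 1.76e-05). On the deposited scale the call was lost without day 0 replicate 2, day 0 replicate 3 or day 7 replicate 3 (limma adjusted p = 0.0620, 0.0602 and 0.0951). Once scaled it passed with any single library left out, at limma adjusted p of 2.32e-04 or less.

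Within libraries JAR1 was lower relative to the enzymes before it at day 7. Its ratio to AOS was 5.58, 5.55 and 6.57 at day 0 and 1.77, 2.41 and 1.88 at day 7, a 2.92-fold lower mean without overlap. Its ratio to OPR3 was 2.77, 3.71 and 3.10 at day 0 and 0.745, 0.958 and 0.690 at day 7, so JAR1 exceeded OPR3 in every day 0 library and lay below it in every day 7 library. By contrast AOC3 to AOS was 1.08 to 1.59 at day 0 and 1.14 to 1.42 at day 7, with overlap. These pairs were chosen after their values were seen and are given without a test. By rank JAR1 stood above 93.3% to 94.2% of listed genes at day 0 and 81.0% to 85.6% at day 7. The order of the 4 well expressed members by mean TPM at day 0 was JAR1, OPR3, AOC3 and AOS, and at day 7 it was OPR3, JAR1, AOC3 and AOS. By mean TPM, AOC3 and AOS lay within their spread of each other at both times, and so did OPR3 and JAR1 at day 7. Within libraries, AOC3 exceeded AOS in every library of both groups (1.08-fold to 1.59-fold), and OPR3 exceeded JAR1 in every day 7 library.

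**Figure D3:**
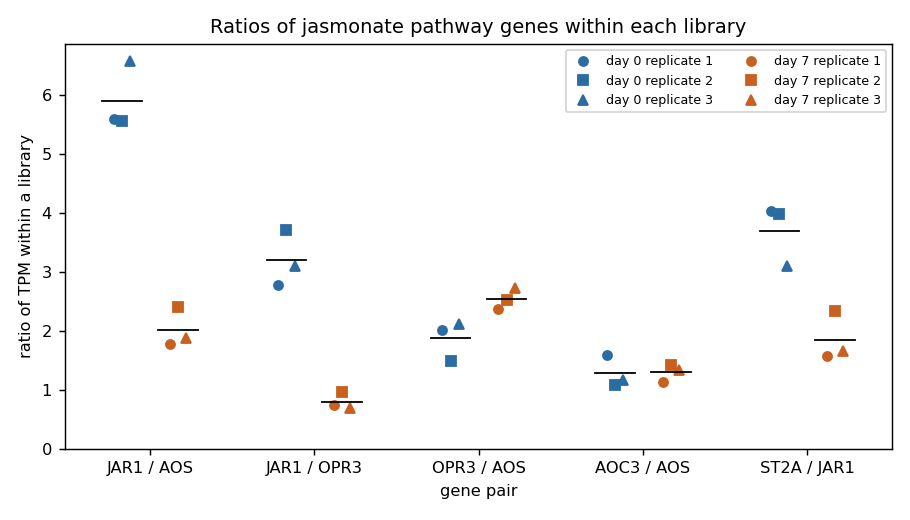
Ratios of TPM between pairs of jasmonate pathway genes within a library. Points are libraries (blue day 0, orange day 7, marker shape by replicate) and bars are group means; JAR1 relative to AOS is 5.55 to 6.57 at day 0 and 1.77 to 2.41 at day 7, while AOC3 relative to AOS overlaps.

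VSP2, the member that reports the response and not the synthesis, was low throughout. It stood at 0.230, 1.78 and 1.11 TPM at day 0 and at 0, 0.350 and 0.620 at day 7, so the groups overlapped. Its fit without the minimum did not pass (log2 difference -0.57 ± 0.24, SE, limma adjusted p = 0.0802). VSP1 (AT5G24780), its neighbour on chromosome 5 with 87.8% coding identity and 5365 bases between the genes, stood at 1.44, 2.26 and 2.87 TPM at day 0 and at 0.0800, 0 and 0.0900 at day 7. VSP1 reached the minimum through its day 0 libraries alone, so a gene of its level could be tested only if higher at day 0, and its fall (log2 difference -1.57 ± 0.30, SE, limma adjusted p = 1.72e-06) carries that selection. VSP2 held 13.8%, 44.1% and 27.9% of the pair's TPM at day 0 and 0%, 100% and 87.3% at day 7, where the sum was 0.710 TPM or less (exact two-sided permutation p = 0.4, adjusted 0.48). A share of 0.343% of the runs of 50 bases in VSP2 occurs in VSP1.

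Around the members, the other genes of the pathway were described by 7 lists with 73 genes chosen by function, of which 58 were tested. As deposited 6 rose and 18 fell (41.4% called, against 29.6% of all genes), and the scaled counts were 14 and 24 (65.5%, against 64.9%), so the scaled share is that of all genes. Of these 58 genes 8 reached the minimum through the libraries of 1 group alone and could be tested only if higher there: KAT5, CYP94B1, AT3G11180, JAZ8, VSP1, CLH1 and ORA59 through day 0 and JMT through day 7. The direction of these 8 calls was set by that entry. Among the other 50 genes 5 rose and 11 fell as deposited (32%, against 24.4% of all genes that reached 1 TPM in both groups), and 13 rose and 17 fell after scaling (60%, against 62.3%). The 24 deposited calls became 11, 14 and 11 without day 0 replicates 1, 2 and 3, where 51 genes were tested, and 22, 29 and 14 without day 7 replicates 1, 2 and 3. Of the 11 deposited falls among these 50 genes 10 were of turnover, JAZ and response genes. Those lists hold 7, 8 and 6 of the 50 genes, and 4, 3 and 3 of them fell. Of all genes that reached 1 TPM in both groups 12.5% fell. The lists were chosen with earlier results of these data known. The median log2 difference of all tested genes was 0.05 as deposited and -0.01 after scaling.

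Upstream of the members, the lipases DAD1 and DGL, which can release linolenic acid, were listed at 0 in all 6 libraries. Of 3 tested desaturases FAD3 (AT2G29980) of the endoplasmic reticulum rose 2.49-fold, from 119, 206 and 155 TPM to 290, 491 and 414 TPM (log2 difference 1.31 ± 0.43, SE, limma adjusted p = 0.00971). That call was lost without day 0 replicate 1 or 3 or day 7 replicate 3 (limma adjusted p = 0.109 to 0.156), and kept without any single library after median-of-ratios scaling. The plastid desaturases FAD7 and FAD8 had log2 differences of -0.77 ± 0.44 and -0.86 ± 0.42 and did not pass as deposited (limma adjusted p = 0.186 and 0.116), and both fell after scaling (limma adjusted p = 9.29e-04 and 0.00269). Among 6 further lipoxygenases, cyclases and reductases 1 rose (LOX5, not without day 0 replicate 1 or 3), 1 fell and 4 did not pass, with a median of 0.08. After scaling 3 rose and 2 fell. The called share was 33.3% as deposited, against 29.6% of all genes, and 83.3% after scaling, against 64.9%. LOX1 (AT1G55020), a lipoxygenase of the branch that does not lead to jasmonate, fell 7.49-fold, from 24.4, 60.5 and 27.9 TPM to 2.98, 7.97 and 4.12 TPM (log2 difference -2.65 ± 0.44, limma adjusted p = 3.57e-08). It exceeded LOX6 in each day 0 library, 1.66-fold to 2.29-fold, and stood at 0.368 to 0.405 of LOX6 at day 7.

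Of 8 tested genes of the peroxisomal steps around OPR3 1 fell and 7 did not pass (12.5% lower, against 16.2% of all genes). After scaling 3 fell (37.5%, against 33.9%). The 1 was KAT5, a thiolase at 1.90 ± 0.490 and 0.663 ± 0.203 TPM (SD, n = 3 each), which entered the test through day 0 alone, and the other 7 had a median of -0.06. The KAT5 call was lost without day 7 replicate 1 or 3, with a pseudocount of 0.1 or 5, and with no variance trend or a robust variance (limma adjusted p = 0.0521 to 0.122). The abundant thiolase KAT2 stood at 84.7 ± 20.7 and 94.6 ± 37.1 TPM, the multifunctional protein MFP2 at 68.9 ± 20.6 and 68.1 ± 30.4 and the acyl-CoA oxidase ACX1 at 54.2 ± 14.5 and 52.4 ± 20.4 (SD, n = 3 each). OPCL1 (AT1G20510), the ligase that activates the OPR3 product for beta-oxidation, had a log2 difference of -0.84 ± 0.44 (limma adjusted p = 0.148) and fell after scaling (-0.90 ± 0.12, limma adjusted p = 2.93e-04).

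Of 10 tested genes that oxidise, sulphate, methylate or cleave jasmonates or are annotated to related families, 6 fell, 2 rose (CYP94C1 and JMT) and 2 did not pass; after scaling the counts were 6, 3 and 1. Without CYP94B1, AT3G11180 and JMT, which entered through 1 group, 4 of 7 fell and 1 rose, with a median of -1.07, and 4 and 2 after scaling. That is 57.1% lower on either scale, against 12.5% of all genes that reached 1 TPM in both groups, and 31.5% after scaling. Of the 8 deposited calls 4 were left without any one day 0 library, where 8 genes were tested, and 5 without day 7 replicate 3. ST2A (AT5G07010), which sulphates hydroxylated jasmonate, fell 5.03-fold, from 207, 349 and 202 TPM to 24.5, 94.7 and 31.8 TPM (log2 difference -2.51 ± 0.43, SE, limma adjusted p = 6.71e-08). AT5G05600, annotated as an oxygenase dependent on oxoglutarate and iron, fell 11.4-fold, from 15.9, 48.9 and 13.9 TPM to 0.760, 4.10 and 2.03 TPM. CYP94B3 (AT3G48520), which hydroxylates jasmonoyl-isoleucine, fell 4.01-fold from 7.91, 10.1 and 10.3 TPM to 1.07, 3.95 and 2.03 TPM (log2 difference -1.72 ± 0.42, limma adjusted p = 2.59e-04). JMT (AT1G19640), the methyltransferase that makes methyl jasmonate, went from 0.19, 0.10 and 0.26 TPM to 1.99, 2.90 and 1.72 TPM. CYP94C1, which oxidises the hydroxylated hormone further, did not pass in 5 of the 6 fits that leave out a library (it passed without day 7 replicate 1), nor with a pseudocount of 0.1 or no variance trend (limma adjusted p = 0.0568 and 0.0665), and JRG21, an oxygenase counted among the falls, likewise in 5 of 6 (it passed without day 7 replicate 2; limma adjusted p = 0.102 to 0.214 and 0.0572 to 0.328). The JRG21 call was also lost with a pseudocount of 5, with no minimum and over nuclear protein-coding genes (limma adjusted p = 0.0800 to 0.118). After scaling it was kept in only 2 of the 6 fits that leave out a library (limma adjusted p = 0.0113 to 0.113 over the 6). The deposited JRG21 values overlapped between the groups, so 1 of the 4 falls among the 7 genes is not firm on either scale.

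The receptor COI1 stood at 14.2 ± 4.63 and 16.6 ± 5.78 TPM (SD, n = 3 each), with a difference of 0.20 ± 0.44 on the log2 scale (SE, limma adjusted p = 0.778), and the SCF subunit ASK1 at 234 ± 30.4 and 214 ± 91.7 TPM. Of 13 tested receptor and signalling genes 2 rose, 0 fell and 11 did not pass, with a median of 0.45; this is 15.4% higher, near the 13.4% of all genes. After scaling 7 rose and 1 fell, or 61.5% called, near the 64.9% of all genes. MYC3 (AT5G46760), a transcription factor released when JAZ proteins are degraded, rose 2.37-fold, from 8.86, 18 and 12 TPM to 22.8, 39.0 and 30.1 TPM, and the corepressor TPL (AT1G15750) rose 2.35-fold, from 21.8, 53.2 and 31.7 TPM to 52.5, 128 and 70.1 TPM. Both calls (limma adjusted p = 0.0254 and 0.0225) were lost without day 0 replicate 1 or 3 or day 7 replicate 3 (limma adjusted p = 0.128 to 0.284), and both were kept in each such case after scaling. MYC2 stood at 4.44 ± 0.777 and 6.89 ± 2.74 TPM (SD, n = 3 each; limma adjusted p = 0.419), and passed as higher after scaling (0.43 ± 0.13, limma adjusted p = 0.0189), but not without day 0 replicate 3 or day 7 replicate 1 (limma adjusted p = 0.0721 and 0.0572).

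JAZ repressor genes, many of which the hormone itself induces, summed to 181, 341 and 202 TPM at day 0 and 75.3, 197 and 102 TPM at day 7, with overlap. Of 13 JAZ genes 9 were tested, 4 fell (JAZ1, JAZ6, JAZ8 and JAZ10), 0 rose and 5 did not pass, and the counts were the same after scaling. JAZ8 entered through day 0 alone, and of the other 8 genes 3 fell, with a median of -0.31. That is 37.5% lower on either scale. Of all genes that reached 1 TPM in both groups 12.5% fell as deposited and 31.5% after scaling, the latter near the JAZ share. Without day 0 replicate 2 the deposited count was 2. JAZ6 went from 31.3, 51.6 and 32.0 TPM to 1.07, 2.42 and 1.31 TPM (23.9-fold lower, limma adjusted p = 4.74e-17, and 4.15e-07 after scaling). JAZ1 went from 60.4, 114 and 60.1 TPM to 9.69, 37.9 and 15.6 TPM (3.71-fold lower), and JAZ8 from 2.04, 9.90 and 3.79 TPM to 0, 0.230 and 0 TPM. JAZ10 lost its call without day 0 replicate 2 or day 7 replicate 3 (limma adjusted p = 0.0876 and 0.0934). Of 16 response genes 9 were tested, 6 fell, 0 rose and 3 did not pass, and again with the same counts after scaling. VSP1, CLH1 and ORA59 entered through day 0 alone, and of the other 6 genes 3 fell (HEL, ERF1 and ANAC055), with a median of -0.99. That is 50% lower on either scale, against the same 12.5% and 31.5% of all genes. Without any one day 0 library 3 fell of 6 tested, and without day 7 replicate 3 4 fell of 9. HEL (AT3G04720), a hevein-like defence protein, went from 290, 235 and 349 TPM to 10.3, 25.8 and 11.0 TPM (18.6-fold lower, log2 difference -4.23 ± 0.43, limma adjusted p = 8.00e-21). The deposited SE and p-value rest on the shared variance trend and not on the spread of HEL. After scaling the HEL difference was -4.30 ± 0.26 (SE, limma adjusted p = 4.94e-06). ORA59, an ERF factor that joins the jasmonate and ethylene pathways, stood at 6.52, 10.9 and 5.09 TPM at day 0 and was listed at 0 in all day 7 libraries. ERF1 stood at 8.84 ± 1.52 and 3.31 ± 3.18 TPM (SD, n = 3 each; limma adjusted p = 0.00348), a fall that was not called without day 7 replicate 1 or 3 (limma adjusted p = 0.0620 and 0.1003), and ANAC055 was not called without day 7 replicate 3 (limma adjusted p = 0.0769). The 3 tested response genes that did not pass were JAL35, ANAC019 and CHIB, and the abundant CHIB stood at 85.3 ± 21.9 and 97.5 ± 38.4 TPM (SD, n = 3 each). TAT3, which did not reach the minimum, went the other way, from 0.04, 0 and 0 TPM to 0.28, 2.26 and 0.53 TPM. The defensins PDF1.2a, PDF1.2b and PDF1.2c were listed at 0 in all 6 libraries.

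**Figure D4:**
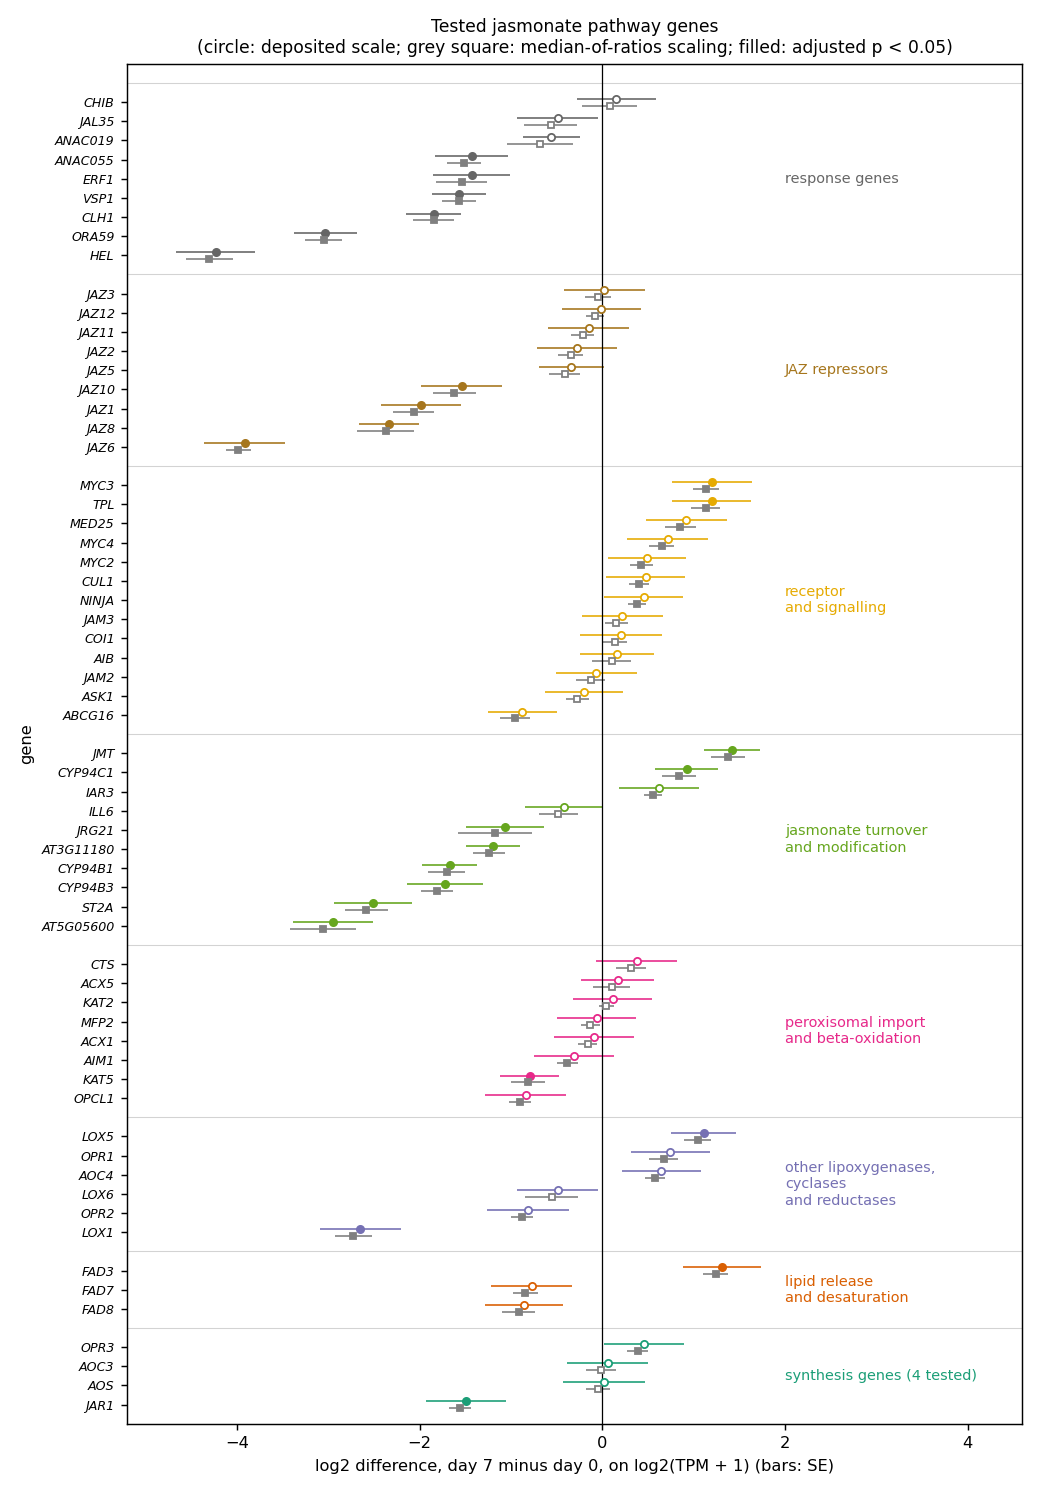
Log2 differences (day 7 minus day 0, on log2(TPM + 1)) with SE for the 62 tested genes of the pathway, by list. Circles are the deposited scale and grey squares median-of-ratios scaling, filled where the limma adjusted p is below 0.05. Filled circles lie to the left for JAZ repressors and response genes. Among these JAZ8, VSP1, CLH1 and ORA59 reached the minimum through day 0 alone and could only lie to the left. The scaled SE are mostly shorter.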

How the data were processed

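RNA-seq values of 6 libraries were used, 3 at day 0 and 3 at day 7, in 1 table of TPM made by the authors before deposition and rounded by them to 2 decimals. Per the submitters' processing notes STAR 2.7.10a, RSEM 1.3.1 and the build TAIR10 were used, without a role for each; the annotation version and any filter are not given in the sources used here. Per the labels, libraries were made from total RNA with a TruSeq RNA kit. TPM holds no depth, so precision rests on the 3 replicates a group.

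The 18608 of 31276 genes that reached 1 TPM in 3 or more libraries were compared by limma-trend (limma 3.58.1, R 4.3.3) on log2(TPM + 1), a pseudocount of 1, with Benjamini-Hochberg adjustment over all of them and a threshold of 0.05. Log2 differences and their SE are on that scale and understate changes of low genes, whereas folds are ratios of mean TPM. On the deposited scale limma took every gene's variance from the shared trend, so those SE and p-values do not measure a gene's own spread. Median-of-ratios factors came from the tested genes above 0 in every library. Shares within a family were compared by exact two-sided permutation. The fit was tested on simulated data. All 83 members and list genes matched the RefSeq name table, and 0 table columns were left out.

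Promoters, coding sequences and transcripts came from RefSeq TAIR10.1 (genome and annotation together); coding sequences were aligned with Biopython 1.88 and MAFFT 7.526. Figures were drawn with matplotlib 3.10.9 in Python 3.11.15. Named from each list were the 3 tested genes with the largest difference among those that passed with a mean of at least 5 TPM in the higher group, filled up with the most abundant tested genes. AOC4, LOX6, VSP1, COI1, MYC2, OPCL1 and the JAZ group were given in any case, and further list members are named for their calls, counts or values. The members and lists were chosen with earlier results of these data known. Alternatives were other scalings, pseudocounts, minimums and variance models, a replicate block, and leaving out each library. Counts without the genes that reached the minimum in 1 group alone were added after the data were seen.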

Additional observations from a re-analysis of the deposited data

How the results depend on the processing

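With TPM the depth is unknown, so values under 1 TPM cannot be told from sampling of few reads. The fall of JAR1 kept its direction under every alternative run. All-gene calls numbered 5512 as deposited (45.3% higher) and 12072 after median-of-ratios scaling, 11755 with quantile normalization and 13135 over nuclear protein-coding genes (70.3% higher); the cause was not tested. Members called numbered 1 as deposited, 2 with median-of-ratios or quantile scaling, 4 over nuclear protein-coding genes (3 higher) and 4 with no minimum, where 10 were tested and 26.2% of all genes passed. List genes called numbered 24 as deposited, against 38, 39 and 43 on those 3 scales and 15 with a minimum of 5 TPM, which tested fewer genes. Without single libraries, all-gene calls ran from 2703 to 6685 as deposited and 9997 to 11699 scaled, members called from 0 to 1 and 1 to 2, and list genes called from 11 to 29 and 29 to 38; leaving out a day 0 library also lowers the number of genes tested.

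Replicate numbers are common to both groups, but the deviations of same-numbered libraries correlated at 0.097, 0.156 and 0.032, so the numbers were not taken as pairs, and day 0 replicates 1 and 3 did not correlate best with their own number. With a replicate block 10119 genes, 1 member and 34 list genes were called, and with the block and median-of-ratios scaling 11984, 2 and 40.

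Differences near 0 turned sign without passing: AOS to -0.0447 with median-of-ratios scaling, with or without the block, and -0.0782 with quantile normalization, AOC3 to -0.0131 and -0.0126, JAZ3 to -0.0431 after median-of-ratios scaling and AIM1 to 0.0782 over nuclear protein-coding genes. Without single libraries AOS ran from -0.235 to 0.242 as deposited and -0.162 to 0.0254 scaled, and AOC3 from -0.266 to 0.321 and -0.187 to 0.133. With AOC4 left out of the sum, the AOC3 share turned from lower to 4.4 percentage points higher at day 7, since AOC2 then weighs more, and the differences of the AOC1 and AOC2 shares became -0.481 and -3.92 points. The share of LOX2 could not be computed without LOX6, since LOX2, LOX3 and LOX4 are all listed at 0 in 1 library. Without single libraries the share differences ran from -5.41 to 0 points for LOX2, -0.147 to -0.0691 for AOC1, -0.976 to -0.659 for AOC2, -7.10 to -3.64 for AOC3, 4.57 to 7.84 for AOC4 and 15.1 to 65.1 for VSP2.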
